A study of Mus musculus with 35 samples.

Results

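Fabp1, Fabp2, Fabp6, Rbp2 and Aldh1a1 are 5 genes of the absorptive intestine whose products hold lipids, bile acids or retinoids inside the cell. They were chosen by name, as 5 of the 23538 genes in deposited single-cell count tables of mouse small-intestinal epithelium, and all 5 have a row in each of the 7 tables used. Intracellular lipid-binding proteins are small barrel-shaped proteins that carry water-insoluble ligands through the cytosol of enterocytes, the absorptive cells that arise from crypt stem cells and migrate up the villus. Fabp1 (liver type) and Fabp2 (intestinal type) bind long-chain fatty acids, and Fabp6 (ileal type) binds bile acids, which are reclaimed in the distal small intestine. Rbp2 binds retinol and retinal during vitamin A absorption, and Aldh1a1 oxidises retinal to retinoic acid.

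Polyadenylated RNA of single sorted cells was counted by CEL-seq, which reads the 3' end of each transcript and marks it for its well and, with 4 random bases, for its molecule. The groups were Reg4-positive cells from the organoid culture of a mouse with a Reg4-dsRed knock-in (2 passages), Lgr5-positive cells sorted from organoids of an Lgr5-GFP-DTR mouse (1 replicate), and cells taken at random from organoids of a wild-type C57BL/6 mouse (whole organoid, 2 passages). From freshly isolated intestine came YFP-positive cells collected 5 days after labelling of Lgr5-expressing cells (5 plates) and Lgr5-EGFP-positive cells (2 plates). Organoids are epithelial structures that crypts form in Matrigel, here in medium with EGF, RspoI and Noggin and with weekly passage. Each organoid group came from 1 mouse, so its replicates are passages of 1 culture. The YFP mice carried Lgr5-Cre and a Rosa26 YFP reporter behind a loxP-flanked stop, so the YFP sort holds both the labelled stem cells and cells that arose from them within 5 days. For the ex vivo plates the labels give neither the age of the mice nor whether plates came from different animals, so p-values measure only the spread between passages or plates. Genotype, reporter, mouse and culture cannot be told apart between organoid and ex vivo groups. Between the organoid groups, sort, genotype, mouse and culture cannot be told apart either.

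The 12 replicates held 1680 wells, of which 1209 with at least 1500 gene counts were kept. Kept wells summed to between 287001 and 2860636 counts per replicate, with a median per well between 4608 and 13131.5. All 8 epithelial identity genes (Epcam, Vil1 and keratins among them) were counted in every replicate. In Reg4-positive replicate 2, 3 wells with over 100000 counts each held 49.3% of the counts. Of the Reg4-positive samples I to III that the labels give per passage, the tables hold 1 plate for the first passage and 2 for the next. The Lgr5-positive organoid table was matched by its name alone, so every value of that group rests on the match. Only 48 wells of YFP replicate 4 were in its table. Levels are in CPM, counts put on 1 common library size, after TMM scaling between replicates, except within wells, bins and clusters, where no TMM factor was applied.

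The 5 genes lie on different chromosomes of GRCm38. Fabp1 spans chr6:71199827-71205023 on the plus strand, Fabp2 spans chr3:122895072-122899506 on the plus strand, and Fabp6 spans chr11:43596049-43601540 on the minus strand. Rbp2 spans chr9:98486115-98509781 and Aldh1a1 spans chr19:20492715-20643465, both on the plus strand. The promoter windows of the 4 binding protein genes are shown because these genes share a family and a tissue. The groups and replicates in which they were counted differed below. Each window is the 250 bases upstream of a RefSeq gene start (GRCm38.p6), 5' to 3' on the gene's strand. Capitals mark matches on either strand to the TATA box TATAAA, the GATA factor motif TGATAA, the HNF4 core motif CAAAG, the CDX motif TTTATG or the nuclear receptor motif AGGTCA, so that a match on the other strand shows as its reverse complement. The windows are chr6:71199629-71199878 for Fabp1, chr3:122894822-122895071 for Fabp2, chr11:43601563-43601812 for Fabp6 and chr9:98490287-98490536 for Rbp2. The RefSeq starts of Fabp1 and Rbp2 lie inside the gene spans given above.
Fabp1: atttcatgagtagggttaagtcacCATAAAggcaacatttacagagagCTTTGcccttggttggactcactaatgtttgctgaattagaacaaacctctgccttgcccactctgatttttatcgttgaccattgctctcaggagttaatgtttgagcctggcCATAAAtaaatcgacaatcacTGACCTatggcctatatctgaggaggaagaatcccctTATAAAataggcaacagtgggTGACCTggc
Fabp2: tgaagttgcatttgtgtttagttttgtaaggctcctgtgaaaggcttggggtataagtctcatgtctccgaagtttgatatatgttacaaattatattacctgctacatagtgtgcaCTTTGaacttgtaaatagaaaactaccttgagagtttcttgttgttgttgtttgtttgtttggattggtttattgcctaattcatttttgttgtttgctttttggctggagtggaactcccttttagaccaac
Fabp6: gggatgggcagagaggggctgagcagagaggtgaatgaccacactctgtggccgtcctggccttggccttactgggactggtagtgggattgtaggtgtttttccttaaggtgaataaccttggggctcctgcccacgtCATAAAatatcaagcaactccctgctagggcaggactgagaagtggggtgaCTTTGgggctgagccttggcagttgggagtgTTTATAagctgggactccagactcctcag
Rbp2: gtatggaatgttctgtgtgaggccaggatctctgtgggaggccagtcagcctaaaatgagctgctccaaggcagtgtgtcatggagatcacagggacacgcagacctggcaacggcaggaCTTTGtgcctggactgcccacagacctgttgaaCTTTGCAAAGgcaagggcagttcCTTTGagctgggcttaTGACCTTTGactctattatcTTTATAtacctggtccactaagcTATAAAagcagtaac

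The Fabp1 window held a TATAAA 30 bases before the start, CAAAG at 202 bases, TTTATG at 226 and 88 bases, and AGGTCA at 67 and 9 bases. The Fabp2 window held 1 match, a CAAAG at 133 bases. The Fabp6 window held TATAAA at 29 bases, CAAAG at 60 and TTTATG at 111. The Rbp2 window held 5 CAAAG matches, TATAAA at 38 and 15 bases, and an AGGTCA at 58 bases that overlapped a CAAAG. Aldh1a1 has RefSeq windows before 2 starts, 1 of them inside its gene span, with 5 and 1 CAAAG matches and none of the other motifs. TGATAA was in none of these windows. Over all 32851 RefSeq windows of 27025 genes, 12.4% held TATAAA, 7.94% TGATAA, 48.6% CAAAG, 10.8% TTTATG and 14.0% AGGTCA. A match describes the letters of a window and no more.

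Fabp1, Rbp2 and Aldh1a1 were abundant in whole organoids and YFP-labelled cells and scarce in both Lgr5 sorts, while Fabp2 was counted in every group. Fabp1 stood at 659 and 633 CPM in Reg4-positive organoid cells, at 0 in Lgr5-positive organoid cells, and at 3859.6 and 1409.5 CPM in whole organoids. Its level was 1123, 840, 845, 148 and 573 CPM in the 5 YFP replicates and 2.60 and 5.81 CPM in the Lgr5-EGFP replicates. The whole organoid replicates were the highest, no group overlapped the Lgr5 sorts, and the Reg4-positive values lay within the YFP range. Fabp2 stood at 143 and 317 CPM in Reg4-positive, 129 CPM in Lgr5-positive and 1559 and 758 CPM in whole organoid cells. It stood at 1886, 1200.3, 1342, 422 and 1021 CPM in YFP cells and at 105 and 80.7 CPM in Lgr5-EGFP cells. Fabp2 thus kept a measurable level in both Lgr5 sorts, and its YFP and whole organoid ranges overlapped.

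The retinoid genes were low in the same sorts as Fabp1. Rbp2 stood at 25.4 and 33.5 CPM in Reg4-positive, 2.96 CPM in Lgr5-positive and 454 and 238 CPM in whole organoid cells. It stood at 287, 237, 199, 18.5 and 47.2 CPM in YFP cells and was not counted in the Lgr5-EGFP replicates, where 0 of 75 and 0 of 84 wells allow a share of wells of up to 4.00% and 3.57%. Whole organoid and YFP values of Rbp2 overlapped, and YFP replicates 4 and 5 were the low ones. Aldh1a1 stood at 27.7 and 59.6 CPM in Reg4-positive, 10.9 CPM in Lgr5-positive and 921 and 281 CPM in whole organoid cells. It stood at 124, 118, 119.6, 33.3 and 91.0 CPM in YFP cells and at 4.34 and 3.87 CPM in Lgr5-EGFP cells. Both whole organoid values of Aldh1a1 lay above all YFP values. Fabp6 stood at 0 and 3.73 CPM in Reg4-positive, 0 in Lgr5-positive and 0 and 6.54 CPM in whole organoid cells, at 1.39, 13.3, 1.68, 3.70 and 231 CPM in YFP cells, and at 6.07 and 7.10 CPM in Lgr5-EGFP cells. Fabp6 was therefore near 0 everywhere except in YFP replicate 5.

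**Figure D1:**
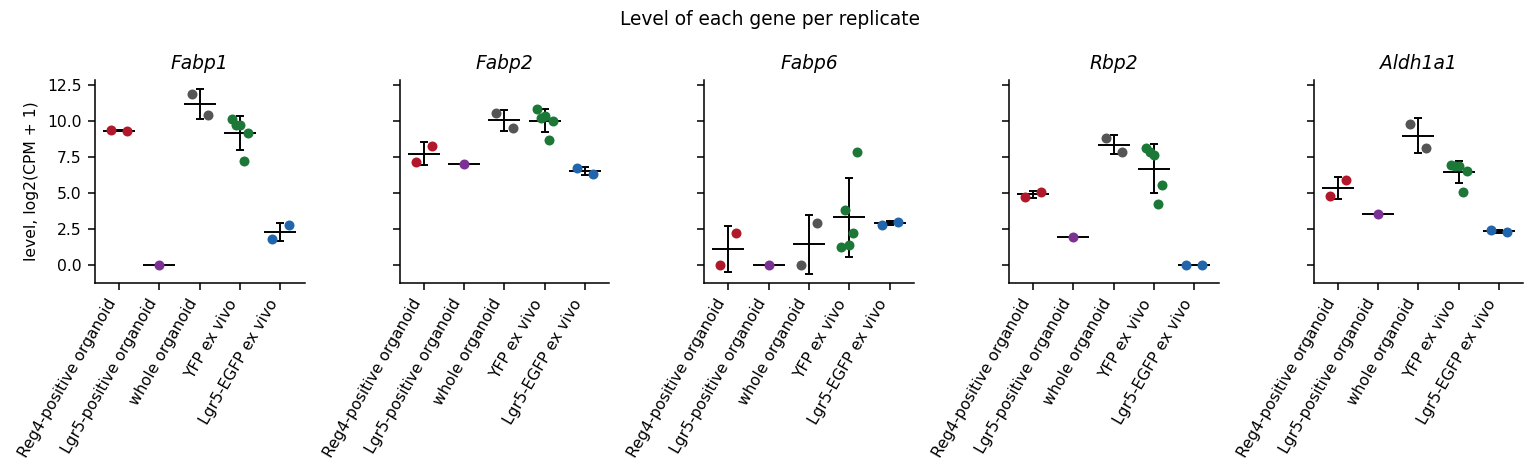
Level of each gene per replicate as log2(CPM + 1) on the y axis, with 1 point per replicate, groups along the x axis, and a bar and whiskers for the mean and SD of the log values (no whiskers for the single Lgr5-positive replicate). Fabp1, Rbp2 and Aldh1a1 spread over the full height, Fabp2 is at 80.7 CPM or more everywhere, and Fabp6 has 1 high point, YFP replicate 5 at 231 CPM.

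Reg4 is known as a marker of enteroendocrine cells, the hormone-secreting cells of the gut. This sort was set against whole organoids, the unsorted culture of another mouse. Fabp2, Rbp2 and Aldh1a1 fell in Reg4-positive cells. Fabp2 averaged 230 ± 123 CPM in Reg4-positive and 1158 ± 566 CPM in whole organoid cells (SD, n = 2 each), a log2 difference of -2.31 (SE 0.52, edgeR quasi-likelihood adjusted p = 0.0392). Rbp2 averaged 29.4 ± 5.78 CPM in Reg4-positive and 346 ± 153 CPM in whole organoid cells, a log2 difference of -3.51 (SE 0.44, edgeR adjusted p = 0.0117). Aldh1a1 averaged 43.6 ± 22.6 CPM in Reg4-positive and 601 ± 452 CPM in whole organoid cells, a log2 difference of -3.71 (SE 0.64, edgeR adjusted p = 0.0187). Fabp1 averaged 646 ± 18.9 CPM in Reg4-positive and 2635 ± 1733 CPM in whole organoid cells, a log2 difference of -2.02 that missed the threshold (SE 0.51, edgeR adjusted p = 0.0567). So 3 of the 4 tested genes were called lower, against 4.07% of the 10522 genes tested, and all 4 had both Reg4-positive values below both whole organoid values, against 28.2% of genes. Fabp6 was too low to be tested here and in the YFP against Lgr5-EGFP comparison. In summed libraries, fewer cells of a type and less RNA per cell cannot be told apart.

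The calls of Fabp2 and Aldh1a1 depended on single libraries, while Rbp2 passed in all 14 alternatives (highest edgeR adjusted p = 0.0461). Without Reg4-positive replicate 1, Fabp2 (log2 difference -1.86, edgeR adjusted p = 0.135) and Aldh1a1 (-3.33, edgeR adjusted p = 0.0867) missed the threshold. Without Reg4-positive replicate 2 the log2 differences were -2.99 and -4.40, without whole organoid replicate 1 they were -1.70 and -2.62, and the Aldh1a1 value without whole organoid replicate 2 was -4.32. Over all 14 alternatives the adjusted p of Fabp2 ran between 6.87e-07 and 0.135, and that of Aldh1a1 between 2.80e-16 and 0.0867. With the replicate number as a block, Fabp2 missed the threshold as well (-2.32, edgeR adjusted p = 0.101), and without the 3 wells over 100000 counts so did Fabp2 (-1.93, edgeR adjusted p = 0.123) and Aldh1a1 (-3.22, edgeR adjusted p = 0.0609). Fabp1 without whole organoid replicate 1 was at -1.12 (edgeR adjusted p = 0.250), within an adjusted p range of 6.54e-05 to 0.250 over its 14 alternatives. The summed level of 22 enterocyte markers was 1761 and 1981 CPM in Reg4-positive and 26310.3 and 13667 CPM in whole organoid cells, and that of 14 Paneth markers was 166629 and 52923 CPM in Reg4-positive and 399 and 5754 CPM in whole organoid cells. Enteroendocrine markers (18 genes) summed to 7525 and 25157 CPM in Reg4-positive and to 3022 and 45.8 CPM in whole organoid cells, so the sort was not of enteroendocrine cells alone. Their part in the differences above was not tested.

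Within the Reg4-positive sort, most counts of Fabp1, Fabp2, Rbp2 and Aldh1a1 came from a few wells. Wells with over 300 counts per 10000 in secretory genes (defensins, mucins and hormones among them) numbered 65 of 75 and 72 of 81. In replicate 1 those 65 secretory wells held 7 Fabp1 counts, with at most 3 in a well, while the other 10 wells held 279, with at most 156 in a well. In replicate 2 the 72 secretory wells held 18 Fabp1 counts, with at most 4 in a well, and the other 9 wells held 661, with at most 540 in a well. Fabp1 therefore stood at 16.3 and 38.4 CPM in secretory wells and at 4177 and 1088 CPM in the other wells of the same sorts. Fabp2 stood at 37.3 and 61.8 CPM in secretory wells, with 16 and 29 counts, and at 689 and 512 CPM in the others, with 46 and 311 counts. Rbp2 had 0 and 5 counts in secretory wells against 11 and 31 in the others, and Aldh1a1 had 1 and 4 against 11 and 60. Fabp6 had 4 counts in replicate 2, of which 3 lay in secretory wells, and none in replicate 1. At a depth of 1500 counts per well, 6.15% and 4.17% of secretory wells and 20% and 22.2% of the other wells held Fabp1, and before thinning the shares were 7.69% and 16.7% against 50.0% and 66.7%. Median depth was 5097 and 5618.5 counts in secretory wells and 5763 and 14441 in the others.

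In whole organoid and YFP replicates Fabp1 was also mostly lower in secretory than in other wells, by a smaller gap. In whole organoids Fabp1 stood at 526 and 144 CPM in 14 and 10 secretory wells and at 3554 and 1458 CPM in 262 and 199 other wells. In YFP replicates it stood at 228, 182, 47.0, 153 and 414 CPM in secretory wells and at 1157, 967, 1012, 137 and 580.2 CPM in the others. YFP replicate 4, with 3 secretory wells, went the other way, and in replicate 5 the secretory level was 71.4% of the other. Fabp2 was less far apart in YFP cells, at 872, 492, 450.0, 109 and 899 CPM in secretory wells and 1890.5, 1312, 1493, 452 and 987 CPM in the others. Secretory wells of YFP replicates thus held Fabp2 in 66.7% to 100% of wells, against 83.6% to 100% of the other wells. Rbp2 was higher in the secretory wells of YFP replicate 5, at 57.1 against 41.1 CPM on 8 and 20 counts, and lower in those of the other YFP replicates. Aldh1a1 was lower in the secretory wells of every YFP replicate.

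**Figure D2:**
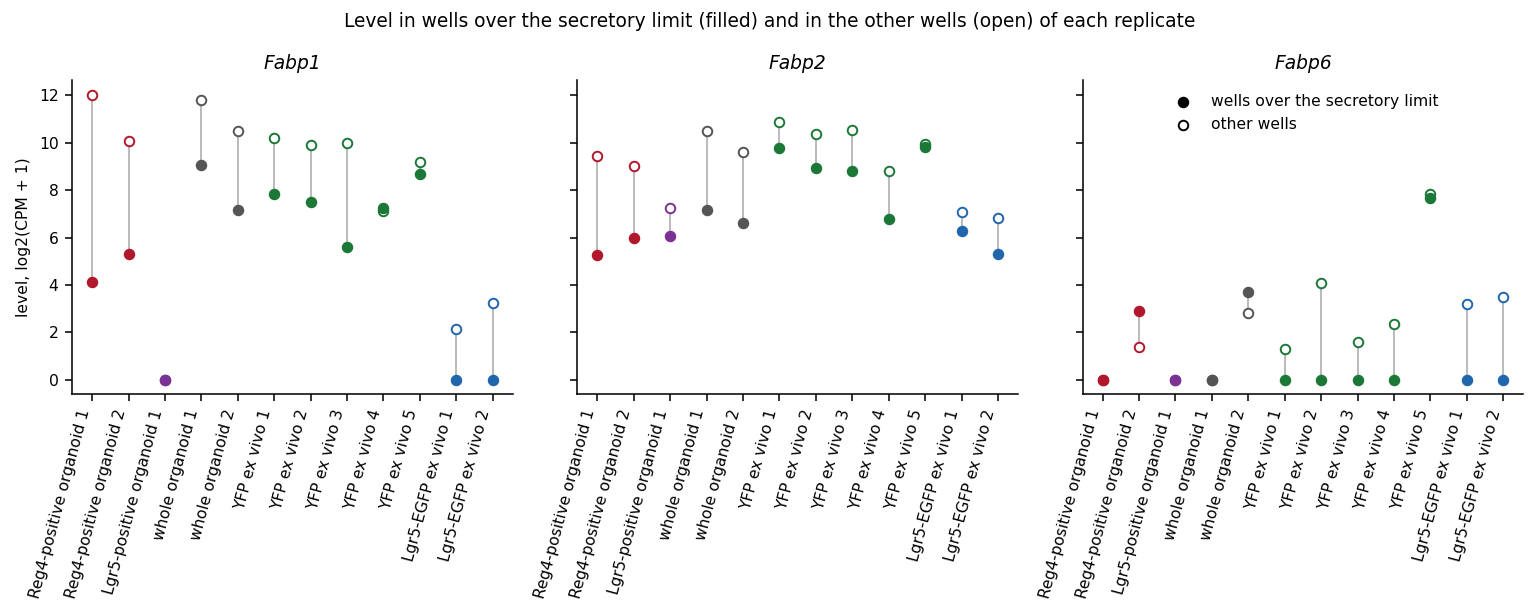
Level of Fabp1, Fabp2 and Fabp6 as log2(CPM + 1) on the y axis in wells over the secretory limit (filled) and in the other wells (open) of each replicate along the x axis, joined by a line. The widest Fabp1 gap is in Reg4-positive replicate 1, at 16.3 against 4177 CPM, and the Fabp6 points of YFP replicate 5 lie close together, at 199.8 against 224 CPM.

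Lgr5 marks crypt base stem cells, and the Lgr5-positive organoid sort was set against whole organoids, the culture of another mouse. Fabp1, Rbp2 and Aldh1a1 fell in Lgr5-positive organoid cells. Fabp1 had 0 counts in 74 Lgr5-positive wells, which allows a share of wells of up to 4.05%, against 11965 counts in whole organoids, so it was at least 889-fold lower against a floor of 3 counts over the group (edgeR adjusted p = 0.0112). Without whole organoid replicate 1 the bound was 475-fold. The wells of this sort under 1500 counts, which were left out, held 1 Fabp1 count. Rbp2 had 3 counts, at 2.96 CPM against 346 ± 153 CPM, and the exact counting interval of the fold decrease ran between 42.9 and 610 (edgeR adjusted p = 0.0112). Against whole organoid replicate 2 alone, at 238 CPM, Rbp2 was 80.3-fold lower. Aldh1a1, at 10.9 CPM against 601 ± 452 CPM, differed by a log2 of -5.78 (SE 0.99, edgeR adjusted p = 0.0260). Fabp2, at 129 CPM against 1158 ± 566 CPM, differed by a log2 of -3.16 that missed the threshold (SE 0.71, edgeR adjusted p = 0.0543). Thus 3 of 4 tested genes were called lower, against 2.97% of the 10522 genes tested, and all 4 lay below both whole organoid values, against 41.7% of genes.

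This comparison shares the whole organoid replicates with the Reg4-positive one, and the spread of its lone Lgr5-positive library was taken from the other groups. Without whole organoid replicate 1 the log2 difference of Aldh1a1 was -4.68 and without replicate 2 it was -6.37, and that of Fabp2 was -2.55 and -3.57, both of which passed the threshold (edgeR adjusted p = 0.00293 and 0.000379, within 2.19e-06 to 0.124 over 12 alternatives). Without the 3 deep Reg4-positive wells Aldh1a1 missed it (-5.76, edgeR adjusted p = 0.0678, the highest over 12 alternatives, of which the lowest was 1.03e-15). Enterocyte markers summed to 751 CPM in Lgr5-positive cells, with 6 of 22 at 0, and stem markers (12 genes) to 3428 CPM against 933 and 1161 CPM in whole organoids. Paneth markers summed to 8652 CPM in Lgr5-positive cells, against 399 and 5754 CPM. The part of cell makeup in these differences was not tested.

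In cells taken straight from the intestine, 4 of the 5 genes rose in the descendants of Lgr5 cells after 5 days. Fabp1 averaged 706 ± 367 CPM in YFP cells (n = 5) and 4.21 ± 2.27 CPM in Lgr5-EGFP cells (n = 2), a log2 difference of 7.30 (SE 0.77, edgeR adjusted p = 3.75e-05). Fabp2 averaged 1175 ± 530.3 CPM in YFP and 92.8 ± 17.2 CPM in Lgr5-EGFP cells, a log2 difference of 3.67 (SE 0.45, edgeR adjusted p = 7.84e-05). Aldh1a1 averaged 97.2 ± 38.0 CPM in YFP and 4.10 ± 0.329 CPM in Lgr5-EGFP cells, a log2 difference of 4.62 (SE 0.43, edgeR adjusted p = 1.55e-05). Rbp2 averaged 158 ± 119 CPM in YFP cells and had no count in Lgr5-EGFP cells, so it was at least 142-fold higher against a floor of 3 counts over the group (edgeR adjusted p = 0.000532). The bound was 81.5-fold without Lgr5-EGFP replicate 1 and 60.6-fold without replicate 2. Each of the 4 was called higher, against 14.7% of the 9065 genes tested, and each had all YFP values above both Lgr5-EGFP values, against 18.0% of genes. Without Lgr5-EGFP replicate 2 the log2 difference of Fabp1 was 8.0, and none of the 17 alternatives ended any of the 4 calls. Enterocyte markers summed to between 1393 and 5351 CPM in YFP cells and to 594 and 645 CPM in Lgr5-EGFP cells, Paneth markers to between 14413 and 67049 CPM against 6521 and 15211 CPM, and immune markers (8 genes) to between 109.6 and 365 CPM against 333 and 245 CPM. Their part was not tested.

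The balance between the 2 fatty acid binding genes moved with the same groups. CEL-seq counts each transcript once from its 3' end, so counts do not grow with transcript length, although capture may differ between genes. There were 0.217 and 0.501 Fabp2 counts per Fabp1 count in Reg4-positive and 0.404 and 0.538 in whole organoid cells. In Lgr5-positive organoid cells 131 Fabp2 counts stood beside 0 of Fabp1, which puts the ratio at 35.0 or more (exact 95% interval, counting error only). YFP replicates held 1.68, 1.43, 1.59, 2.85 and 1.78 Fabp2 counts per Fabp1 count. Lgr5-EGFP replicates held 40.3 and 13.9, or 20.5 over both (exact 95% interval 11.5 to 40.2). In summed counts, Fabp2 was therefore the less counted of the pair in organoids other than the Lgr5 sort, and the more counted in every ex vivo replicate. The Reg4-positive sums rested on few wells, 1 of which held 540 of the 679 Fabp1 counts of replicate 2. Secretory wells, most of that sort, went the other way, with 16 and 29 Fabp2 counts against 7 and 18 of Fabp1. Over Lgr5-EGFP wells, 56.0% and 64.3% held Fabp2 while 1.33% and 5.95% held Fabp1. After thinning to 1500 counts these shares were 18.7% and 14.3% for Fabp2 and 0 and 2.38% for Fabp1.

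To ask when along the lineage each gene came up, wells were ordered within each replicate by late enterocyte genes (Alpi, Sis, Lct and 20 others) over stem genes (15), with none of the 5 genes among them and secretory wells left out. The order was cut into 3 bins of nearly equal numbers of wells, which gives descriptions rather than tests. Bins therefore cover unlike stretches of the order and do not match between replicates. The position, the log2 of late over stem levels, ran up to 1.24 in the middle bin of YFP replicate 1 and 7.91 in its last. In whole organoid replicate 1 the first bin already ran up to 4.00. The part of cell makeup in where a step falls was not tested. Fabp1 averaged 152 ± 93.5 CPM in the first, 232 ± 186 CPM in the middle and 2092 ± 1331 CPM in the last bin of YFP wells (SD, n = 5). Fabp2 averaged 501 ± 210.0 CPM, 617 ± 238 CPM and 2732 ± 1589 CPM in the same bins. Both genes were thus already counted in the first bin, and their larger rise between these bins was from the middle to the last. Rbp2 averaged 35.9 ± 17.9 CPM, 46.2 ± 43.4 CPM and 473 ± 382 CPM, and Aldh1a1 averaged 33 ± 17.8 CPM, 29.0 ± 12.8 CPM and 291 ± 163 CPM. The log2 ratio of the last to the first bin was 3.79 for Fabp1, 3.72 for Rbp2, 3.14 for Aldh1a1 and 2.45 for Fabp2. For each of these 4 genes the last bin was above the first in 5 of 5 replicates, against 18.8% of the 3466 genes of at least 50 CPM, while 13.6% were at or below the first bin in all 5.

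The mean level in the middle bin was 22.6% of that in the last for Fabp2, 11.1% for Fabp1, 9.95% for Aldh1a1 and 9.78% for Rbp2. Single replicates ran between 10.6% and 55.4% for Fabp2, 2.26% and 41.3% for Fabp1, 2.33% and 71.7% for Aldh1a1, and 0 and 43.6% for Rbp2. These ranges overlapped. Fabp2 held 2.95, 3.13, 6.67, 4.33 and 2.90 counts per Fabp1 count in the first bin of the 5 YFP replicates and 1.44, 1.07, 1.28, 2.50 and 1.38 in the last. The ratio was lower in the last than in the first bin of all 5, at 3.19 (exact 95% interval 2.64 to 3.89) and 1.30 (1.22 to 1.38) over the summed counts. Fabp6 did not follow the order. It averaged 42.7, 55.5 and 52.2 CPM in the 3 bins, with the last above the first in 2 of 5 replicates, and most of those counts were of replicate 5, where the bins stood at 179, 258 and 245 CPM.

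In the levels of Fabp1, Fabp2, Rbp2 and Aldh1a1, whole organoid wells showed the same direction, with a higher middle bin in replicate 1. The ratio of Fabp2 to Fabp1 counts did not repeat its fall in both replicates. It was 0.371 in the first and 0.454 in the last bin of replicate 1, and 1.52 and 0.488 in those of replicate 2. Fabp1 stood at 985 and 118 CPM in the first bin of the 2 replicates, at 5218 and 718 CPM in the middle and at 5952 and 4049 CPM in the last. Fabp2 averaged 273 ± 132 CPM, 1159 ± 1047 CPM and 2340.5 ± 514 CPM. Rbp2 averaged 119, 406 and 572 CPM, and Aldh1a1 averaged 133, 705 and 1106 CPM. The middle bin reached 59.4% of the last for Fabp1, 49.5% for Fabp2, 71.0% for Rbp2 and 63.8% for Aldh1a1 on average, but the replicates stood apart, since for Fabp1 it was 87.7% in replicate 1 and 17.7% in replicate 2. The last bin was above the first in both replicates for all 4 genes, against 37.5% of 3548 genes, while 47.5% were at or below the first bin in both. The log2 ratios of last to first were 3.18 for Fabp1, 3.10 for Fabp2, 2.26 for Rbp2 and 3.06 for Aldh1a1. Without replicate 1 they were 5.10 for Fabp1, 4.72 for Rbp2 and 4.81 for Aldh1a1, and without replicate 2 they were 2.59 for Fabp1 and 1.47 for Rbp2. Thinned to 1500 counts per well, Fabp1 was in 47.7%, 97.7% and 100% of the wells of the 3 bins in replicate 1 and in 28.4%, 50.0% and 90.9% in replicate 2. Median depth was lower in each later bin of both, at 11321.5, 7135 and 6266 counts in replicate 1 and 7397, 4186.5 and 3747 in replicate 2. In the Lgr5 sorts Fabp2 averaged 91.3, 108 and 153 CPM over the bins of Lgr5-EGFP wells and stood at 97.8, 129 and 229 CPM over those of Lgr5-positive organoid wells.

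**Figure D3:**
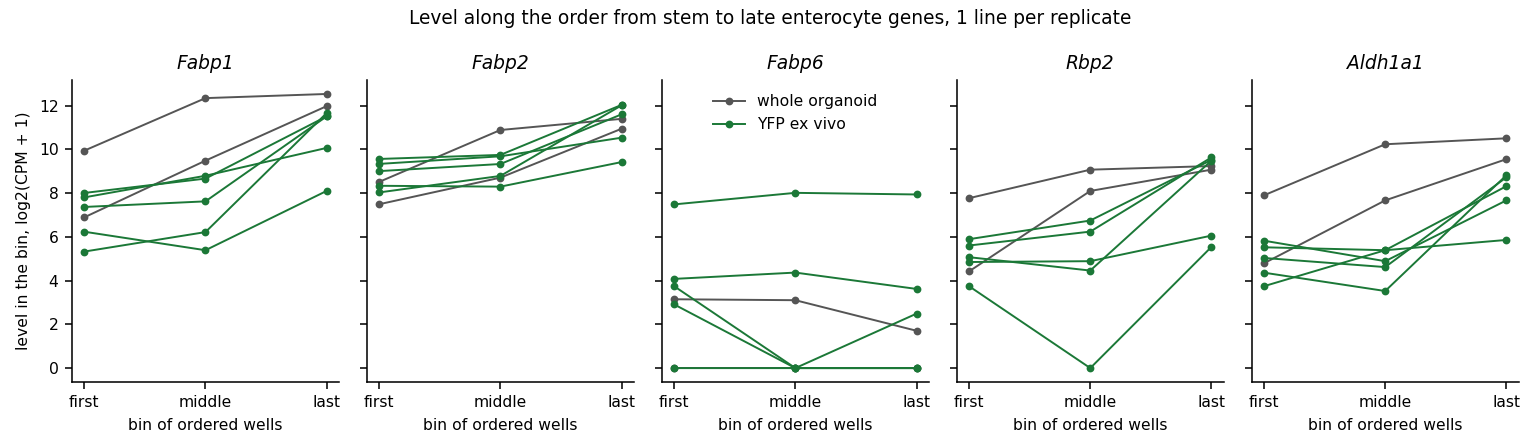
Level of each gene as log2(CPM + 1) on the y axis in the first, middle and last bin of wells ordered from stem to late enterocyte genes on the x axis, with 1 line per replicate of whole organoid and YFP cells. All lines of Fabp1, Fabp2, Rbp2 and Aldh1a1 end above their start, while the Fabp6 lines are flat or broken by 0 and only YFP replicate 5 stays high, at 179, 258 and 245 CPM.

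Levels were also read by cluster of wells, with clusters made without the 5 genes and described without a test. The enterocyte-like cluster of organoid wells (104 wells, 92 of them from whole organoid replicate 1) held Fabp1 at 5828 CPM, Fabp2 at 2908 CPM, Aldh1a1 at 1212 CPM, Rbp2 at 619 CPM and no Fabp6 count. An unnamed cluster of 54 wells was at 5950.5 CPM for Fabp1 and 1735 CPM for Fabp2, and another of 47 wells, all of whole organoid replicate 2, was at 2901 CPM for Fabp1 and 379 CPM for Fabp2. The level of Fabp2 beside Fabp1 thus differed between clusters rich in both. It also differed between plates of whole organoid replicate 2. Fabp2 stood at 258 and 214 CPM on plates I and II there, and at 874 and 904 CPM on plates III and IV. The part of plate in the cluster difference was not tested. The stem-like organoid cluster (81 wells, 68 of them Lgr5-positive) held Fabp1 at 22.3 CPM and Fabp2 at 182 CPM, and the Paneth-like one (71 wells) at 19.6 and 52.4 CPM. Of the Reg4-positive wells, 45 of replicate 1 and 19 of replicate 2 lay in the Paneth-like cluster. The goblet-like cluster held 14 and 3 of them, and the enteroendocrine-like one 7 and 49. Among ex vivo wells the enterocyte-like cluster (37 wells, all YFP) held Fabp2 at 6219 CPM, Fabp1 at 5352 CPM, Rbp2 at 1246 CPM, Aldh1a1 at 714 CPM and Fabp6 at 13.0 CPM. The stem-like YFP cluster (59 wells) held Fabp1 at 260.0 CPM and Fabp2 at 638 CPM, while the 3 clusters made up of Lgr5-EGFP wells alone held Fabp1 at 0, 3.06 and 6.20 CPM and Fabp2 at 84.3, 141 and 92.9 CPM. The YFP cluster was named on 4 raised stem markers. The Lgr5-EGFP cluster with Fabp1 at 6.20 CPM had 6 raised but none in its top 10 genes, and so stayed unnamed. Those 3 clusters each come from 1 group, so group and cell type cannot be told apart in them.

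**Figure D4:**
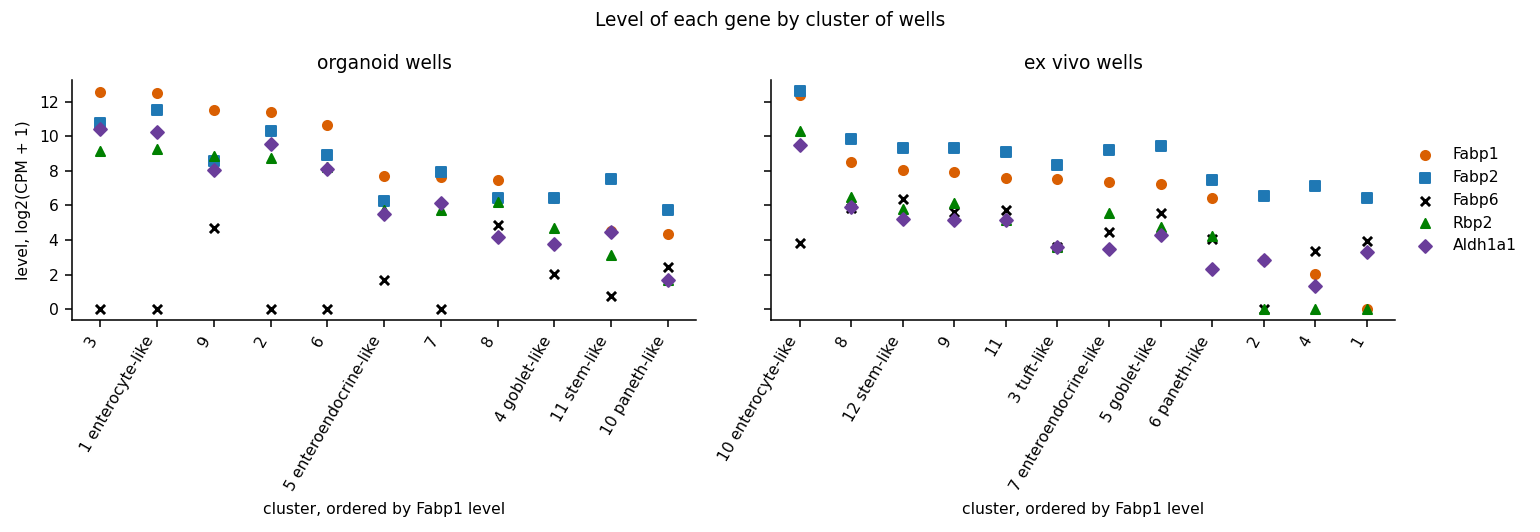
Level of each gene as log2(CPM + 1) on the y axis in each cluster of organoid (left) and ex vivo wells (right) on the x axis, ordered by Fabp1. The enterocyte-like clusters hold Fabp1 at 5828 CPM in organoids and 5352 CPM ex vivo, where Fabp2 lies above Fabp1 in every cluster.

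In single wells Fabp1 varied together with Fabp2, Rbp2 and Aldh1a1, in Reg4-positive, whole organoid and YFP wells. Pearson's r of log-scaled counts between Fabp1 and Fabp2 was 0.63 over 156 Reg4-positive wells, 0.73 over 485 whole organoid wells and 0.73 over 335 YFP wells, but 0.05 over 159 Lgr5-EGFP wells. Lgr5-positive organoid wells had no Fabp1 count and so gave no value. Within replicates it ran between 0.62 and 0.65, 0.57 and 0.78, 0.21 and 0.79, and -0.02 and 0.26 in those 4 groups. Between Fabp1 and Aldh1a1 it was 0.78 in Reg4-positive, 0.72 in whole organoid and 0.64 in YFP wells, and between Fabp1 and Rbp2 it was 0.71, 0.63 and 0.68. Wells of a replicate share a library and differ in depth, so these values are descriptions. All 4 of these genes were counted in 2 of 75 and 4 of 81 Reg4-positive wells, in none of the Lgr5-positive organoid or Lgr5-EGFP wells, and in 72.8% and 26.3% of whole organoid wells. In YFP replicates the share was 23.8%, 17.9%, 12.2%, 5.71% and 17.6%. Thinned to 1500 counts, it was 30.8% and 7.66% in whole organoids and at most 6.76% in YFP replicates.

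Whole organoid cells set against YFP cells compare culture with intestine for cells of mixed age. Fabp1 and Aldh1a1 rose in whole organoids and Fabp2 did not pass the test. Fabp1 averaged 2635 ± 1733 CPM in whole organoid and 706 ± 367 CPM in YFP cells, a log2 difference of 1.89 (SE 0.48, edgeR adjusted p = 0.0112). Aldh1a1 averaged 601 ± 452 CPM in whole organoid and 97.2 ± 38.0 CPM in YFP cells, a log2 difference of 2.57 (SE 0.38, edgeR adjusted p = 0.000311). The log2 difference of Fabp2 was -0.02 (SE 0.43, edgeR adjusted p = 0.982) and that of Rbp2 1.07 (SE 0.55, edgeR adjusted p = 0.187), so their directions are not resolved against the spread. Called higher were 2 of the 5 genes, against 13.4% of the 10632 genes tested, and both had all whole organoid values above all YFP values, against 20.1% of genes. The log2 difference of Fabp6 was -4.23 (SE 1.65, edgeR adjusted p = 0.0801) and -0.91 without YFP replicate 5 (edgeR adjusted p = 0.640, the highest over 15 alternatives, of which the lowest was 9.40e-19). Without whole organoid replicate 1, Fabp1 was at 0.99 (edgeR adjusted p = 0.281, the highest over 16 alternatives, of which the lowest was 2.03e-17) and Aldh1a1 at 1.46, and without replicate 2 Aldh1a1 was at 3.18. With the replicate number as a block, Fabp1 was at 1.35 and missed the threshold (edgeR adjusted p = 0.0692). Enterocyte markers summed to 26310.3 and 13667 CPM in whole organoids and to between 1393 and 5351 CPM in YFP cells. Paneth markers summed to 399 and 5754 CPM in whole organoids and to between 14413 and 67049 CPM in YFP cells, and stem markers to 933 and 1161 CPM in whole organoids and to between 2338 and 3319 CPM in YFP cells. The part of these markers was not tested.

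Between the Lgr5 sorts of culture and intestine no member of the set was called. Fabp2 stood at 129 CPM in Lgr5-positive organoid cells and 92.8 ± 17.2 CPM in Lgr5-EGFP cells, a log2 difference of 0.48 (SE 0.66, edgeR adjusted p = 0.873). Aldh1a1 stood at 10.9 CPM in Lgr5-positive organoid and 4.10 ± 0.329 CPM in Lgr5-EGFP cells, a log2 difference of 1.39 (SE 1.11, edgeR adjusted p = 0.723). Fabp1 had 0 counts in Lgr5-positive organoid cells and 12 in Lgr5-EGFP cells, Rbp2 had 3 and 0, and Fabp6 had 0 and 18 (edgeR adjusted p = 0.617, 0.743 and 0.825). Of all 10632 genes tested, 1.44% were called in either direction. With no filter on low counts Fabp6 passed the threshold (edgeR adjusted p = 0.0334, the lowest over 10 alternatives, of which the highest was 0.956). A p that misses the threshold does not show that the sorts were alike.

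Fabp6 belongs to the distal small intestine, and its counts were concentrated in 1 replicate. YFP replicate 5 held 137 Fabp6 counts in 56 of 68 wells (82.4%, exact 95% interval 71.2% to 90.5%), or 33.8% of wells after thinning to 1500 counts. The other 4 YFP replicates held 1, 10, 1 and 1 counts, in at most 10.3% of wells, and Lgr5-EGFP replicates held 7 and 11 counts, in 5.33% and 7.14% of wells. Only Fabp6 and Cp (ceruloplasmin, a copper-binding oxidase), 2 of 5788 genes or 0.0346%, stood at least 10-fold above every other replicate in YFP replicate 5. Fabp6 was at 231 CPM there against 13.3 CPM in the next highest replicate, and Cp at 75.8 CPM against 3.15 CPM. Cp was picked out by this search and not by an earlier list.

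Inside that replicate Fabp6 was spread across wells rather than held by a few. The 12 wells without it stood beside 23 wells with 1 count, 11 with 2, 8 with 3, 7 with 4, 5 with 5, 1 with 7 and 1 with 8. It was counted in 51 of 62 wells with Fabp1 (82.3%) and in 5 of the 6 wells without (83.3%). With at least 2 counts required of each gene, the shares were 55.6% of 54 wells with Fabp1 and 21.4% of the other 14. Among secretory wells 71.4% of 14 held it, at 199.8 CPM, and among the others 85.2% of 54, at 224 CPM. The shallower 34 wells (median 3851.5 counts) stood at 341 CPM and the deeper 34 (median 11049 counts) at 185 CPM. The 34 wells with more Fabp1 stood at 265 CPM and the 34 with less at 196 CPM. Fabp6 was thus counted in each of these subsets of 1 plate. Pearson's r with Fabp1 over all 335 YFP wells, which mixes plates with and without much Fabp6, was 0.14. Within single YFP replicates it ran between -0.13 and 0.20.

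**Figure D5:**
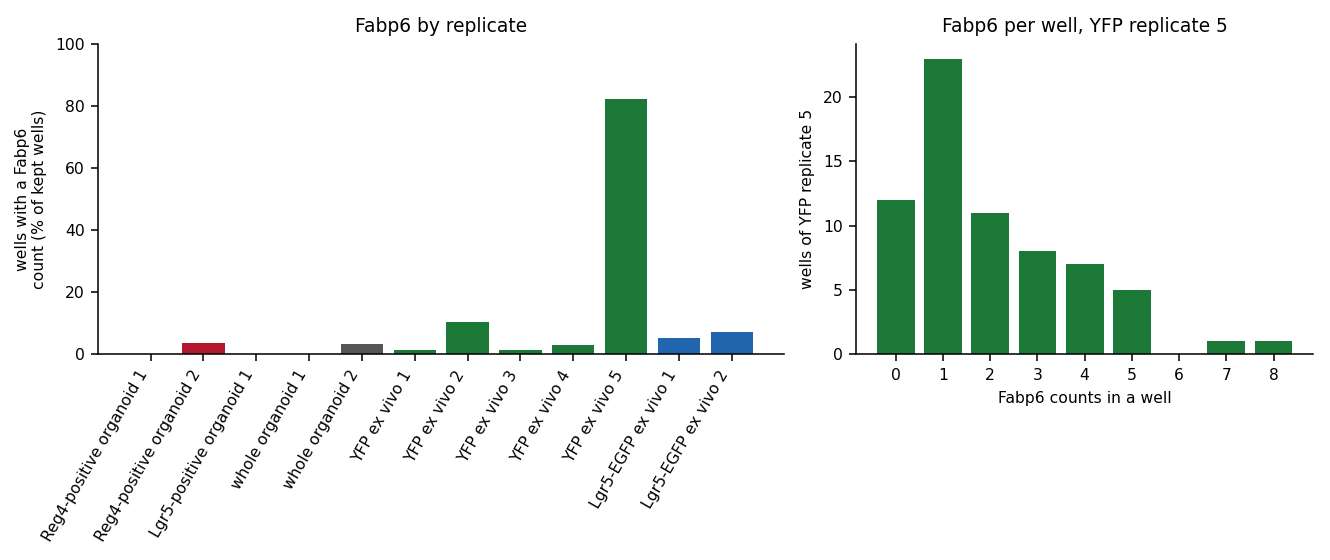
Left, percent of kept wells with a Fabp6 count (y axis) in each replicate (x axis). Right, number of wells of YFP replicate 5 (y axis) by Fabp6 counts in the well (x axis). YFP replicate 5 reaches 82.4% while no other replicate exceeds 10.3%, and its wells run between 0 and 8 counts with 23 wells at 1 count.

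Of the other regional genes, some were highest in the same replicate and some were not. A list of 7 genes of distal intestine summed to 347 CPM in YFP replicate 5, with 2 genes at 0, and to 104, 79.6, 77.5 and 22.2 CPM in the other 4 YFP replicates, with 4 to 6 genes at 0. Its sum was higher in Lgr5-EGFP replicate 2, at 556 CPM, and in Reg4-positive replicate 2, at 445 CPM. Hormone genes made up most of both sums, with 522 Gcg and 334 Pyy counts in the former and 202 Gcg and 267 Nts counts in the latter. Slc10a2, Fgf15 and Slc51a had 1, 0 and 1 counts in the former and 2, 0 and 7 in the latter. Fabp6 stood at only 7.10 and 3.73 CPM in those 2 replicates. Most of the sum in replicate 5 was Nts (neurotensin), counted there at 281.5 CPM, in Reg4-positive replicate 2 at 249 CPM and in no other replicate. Slc10a2, the apical bile acid importer of ileum, and Fgf15, the enterokine released on bile acid uptake, also had their highest levels in YFP replicate 5, but these were 3.37 and 1.69 CPM and rest on 2 counts and 1 count. Slc51a, a subunit of the basolateral bile acid exporter, stood at 83.6, 57.0, 57.3, 22.2 and 53.9 CPM in YFP replicates and at 71.2 and 47.7 CPM in whole organoids. Replicate 5 was thus inside the YFP range for Slc51a. Among genes of proximal intestine, the transcription factor Gata4 ran between 104.5 and 144 CPM in YFP cells, with replicate 5 the lowest, and Gip, a hormone of K cells, stood at 1.39, 919, 6.74, 396 and 0 CPM. Other hormone genes of the same list went differently. Cck had 1, 27, 0, 4 and 82 counts in the YFP replicates, the most in replicate 5, and Sct had 23, 61, 6, 6 and 37. The whole proximal list of 9 genes summed to 480 CPM in replicate 5, within 404 to 1382 CPM over the YFP replicates. The labels do not name the segment of intestine, so region, mouse and plate cannot be told apart.

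Genes of lipid uptake and chylomicron assembly moved with the fatty acid binding genes. Of 23 tested, 15 fell and none rose in Reg4-positive against whole organoid cells (4.07% of all genes fell), with a median log2 difference of -2.33 beside 0.01 over all genes. Apoa4, an apolipoprotein of chylomicrons, fell to 110.3 ± 6.04 CPM in Reg4-positive cells, against 2637 ± 739 CPM in whole organoids (log2 difference -4.57, SE 0.43, edgeR adjusted p = 0.0103). Dbi, the acyl-CoA-binding protein, fell to 681 ± 340.1 CPM in Reg4-positive cells, against 3010.0 ± 976 CPM (log2 difference -2.14, SE 0.48, edgeR adjusted p = 0.0399). Apoa1, the other major apolipoprotein named, fell by 3.59 on the log2 scale (edgeR adjusted p = 0.0180), and Scp2, a sterol carrier, was at -1.06 and missed the threshold (edgeR adjusted p = 0.223). In Lgr5-positive against whole organoid cells 12 of 23 fell (2.97% of all genes), with a median of -2.93, or -2.68 with genes at 0 set to their bound. Apoa4 was at 12.8 CPM in Lgr5-positive cells and fell by 7.67 on the log2 scale (edgeR adjusted p = 0.00740). In YFP against Lgr5-EGFP cells 17 of 22 rose and 1 fell (Slc27a2, -0.59), with a median of 1.54. Of all genes 14.7% rose and 11.0% fell in that comparison. Dbi rose to 941 ± 109.6 CPM in YFP cells, against 357 ± 36.4 CPM in Lgr5-EGFP cells, and Apoa4 had 1465 counts against 2 and Apoa1 2018 against 1. In whole organoid against YFP cells 16 of 23 rose (13.4% of all genes), with a median of 1.45, among them Apoa4 (2.55, edgeR adjusted p = 0.00443) and Dbi (1.68, edgeR adjusted p = 0.000260). Along the order of YFP wells the last bin was above the first in all replicates for 12 of 18 such genes of at least 50 CPM (18.8% of all genes), and in whole organoids for 20 of 21 (37.5%).

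Genes of retinoid handling were less uniform. In Reg4-positive against whole organoid cells 4 of 19 fell and 1 rose, Rbp4 (the serum retinol carrier), with 87 counts against 2, beside 4.07% and 2.39% of all genes. Retsat (retinol saturase) fell to 37.1 ± 6.82 CPM in Reg4-positive cells, against 149 ± 29.9 CPM in whole organoids, while Adh1, an alcohol dehydrogenase that oxidises retinol, was at 1231 ± 515 CPM against 3260.2 ± 610.1 CPM and missed the threshold (edgeR adjusted p = 0.0991). Adh1 fell in Lgr5-positive organoid cells to 374 CPM (edgeR adjusted p = 0.0366), as 1 of 4 genes that fell among 19 (2.97% of all genes). In YFP against Lgr5-EGFP cells 8 of 16 rose (14.7% of all genes) and none fell, with a median log2 difference of 1.11. Adh1 averaged 773 ± 177 CPM in YFP and 78.5 ± 31.3 CPM in Lgr5-EGFP cells (log2 difference 3.30, edgeR adjusted p = 1.33e-05), and Rbp7, another cellular retinol-binding protein, averaged 77.7 ± 22.5 CPM in YFP and 6.25 ± 3.94 CPM in Lgr5-EGFP cells (3.54, edgeR adjusted p = 2.81e-05). In whole organoid against YFP cells 10 of 19 rose and 3 fell, beside 13.4% and 9.45% of all genes. Rbp7 went the opposite way to Aldh1a1, with 6.88 ± 1.40 CPM in whole organoid and 77.7 ± 22.5 CPM in YFP cells (-3.45, edgeR adjusted p = 4.36e-05). Isx, an intestinal repressor of carotenoid uptake genes, fell to 29.2 ± 9.88 CPM in whole organoids, against 64.6 ± 13.1 CPM in YFP cells (-1.13, edgeR adjusted p = 0.00477). Adh1 was also called between the Lgr5 sorts, at 374 CPM in Lgr5-positive organoid and 78.5 ± 31.3 CPM in Lgr5-EGFP cells (2.24, edgeR adjusted p = 0.0174), as 1 of 4 retinoid genes that rose among 19 (0.762% of all genes). Fabp5, a fatty acid binding protein not specific to intestine, was tested in all comparisons and passed in none.

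Bile acid genes and regulators completed the lists, and the shares of all genes called are those given for the lipid and retinoid lists. Of 7 bile acid genes tested, 3 fell in Reg4-positive and 3 in Lgr5-positive against whole organoid cells, and 5 rose and 1 fell (the nuclear receptor Nr1h4, -1.10, edgeR adjusted p = 0.0217) in YFP against Lgr5-EGFP cells. Slc51a had 175 counts in YFP and 1 in Lgr5-EGFP cells. In whole organoid against YFP cells 2 of 7 rose, the conjugate exporters Abcc2 (2.57) and Abcc3 (1.39), and Slc51a was at 0.06 (edgeR adjusted p = 0.926). Of 22 regulators 3 fell in each of the Reg4-positive and Lgr5-positive comparisons, and of 21 in YFP against Lgr5-EGFP cells 7 rose and 3 fell, where 14.7% and 11.0% of all genes did. Hnf4a, a nuclear receptor of absorptive epithelium, averaged 538 ± 48.4 CPM in YFP and 294 ± 8.71 CPM in Lgr5-EGFP cells (0.88, edgeR adjusted p = 0.000770), and Cdx1, a homeobox factor, averaged 208 ± 9.87 CPM in YFP and 340.4 ± 17.8 CPM in Lgr5-EGFP cells (-0.70, edgeR adjusted p = 0.00163). Neither passed in the Reg4-positive comparison, at -0.37 and 0.02 (edgeR adjusted p = 0.560 and 0.986). In whole organoid against YFP cells 5 of 22 regulators rose and 1 fell (13.4% and 9.45% of all genes), and between the Lgr5 sorts Gata4 alone was called, with none of the lipid or bile acid genes.

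The genes whose levels ran most like each member over the 12 replicates were found among 3713 genes of at least 50 CPM (3714 for Fabp6). The measure was Pearson's r of log2(CPM + 1), over replicates that share groups. For Rbp2 they were Apoa4 (0.98), Cyp3a13 (0.98) and Apoa1 (0.98), for Fabp1 Ptchd1 (0.96), Lasp1 (0.96) and Alpi (0.95), and for Fabp2 Mtch2 (0.98), Arg2 (0.97) and Mdh1 (0.97). For Aldh1a1 they were Myl12b (0.99), Tmbim6 (0.99) and Hagh (0.98). Fabp6 had no gene above 0.87 (Snrnp40), and its next were Afg3l2 (0.81) and Mrps12 (0.80), all of them highest in YFP replicate 5 as Fabp6 was.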

How the data were processed

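Single cells were sorted into wells, 1 per well, and counted by CEL-seq. The authors deposited estimated counts of transcripts per gene and well, made from distinct molecular barcodes. The submitters' processing notes name BWA 0.6.2-r126 and the build mm10 (GRCm38), while the counting method and its annotation were not given in the sources used here. From these tables, 192 columns matched no sample and were not used, and 92 spike-in rows were left out of totals and tests. The deposited estimated counts were rounded to whole numbers, with a largest shift of 0.495. Wells under 1500 counts were left out (1209 of 1680 kept, all distinct), and the rest were summed over all plates and lanes of a replicate. No doublet caller was run.

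Genes were tested with edgeR 4.0.16 (TMM, filterByExpr, quasi-likelihood test, Benjamini-Hochberg 0.05) under R 4.3.3. A single fit served the organoid groups, the ex vivo groups had another, and culture was compared with intestine in a fit of all 12 replicates. DESeq2 1.42.0, no filter, thinned wells, a replicate block, other well limits, a fit of all groups and leaving out each replicate were tried as alternatives, and leaving out replicates from the lineage bins and a crossed block were added after the data were seen. The members and lists were chosen with earlier results of these data known. Text names the members, up to 4 genes per list with the highest mean CPM and 3 like genes per member by rule, and other genes after their values were seen. The self-test ran on simulated counts.

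Well shares carry exact binomial 95% intervals, except that the upper limit given for 0 wells is 3 divided by the number of wells. These limits and the floors of 3 counts cover counting error only. Clusters used scaling to 10000 counts, 2000 variable genes, 20 components, 10 neighbours and Leiden resolution 1 (scanpy 1.11.5, igraph 0.11.9, Python 3.11.15). A cluster was named when at least 3 markers of a class were raised 2-fold and counted in 25% of wells, with that class leading its top 10 genes. A secretory well had over 300 counts of secretory genes per 10000. Coordinates came from GENCODE M21 on GRCm38. Protein sequences were not used here.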

Additional observations from a re-analysis of the deposited data

Results flagged for a closer look

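Fabp6 in YFP replicate 5 stood apart from the other 4 YFP replicates in level (230.9 CPM), in the share of wells with a count (82.4%) and in that share after thinning to 1500 counts per well (33.8%). The number of Fabp2 counts per Fabp1 count was highest in YFP replicate 4, at 2.85, with 40 Fabp1 counts in that replicate. Each gap was over 0.71 of the range of the 5 replicates, and 16 such sets of values were looked at, of which chance flags about 1 in 20.

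Wells under 1500 counts, which entered no comparison, also held these transcripts. In YFP plates they held 107 Fabp1, 155 Fabp2, 14 Fabp6, 27 Rbp2 and 6 Aldh1a1 counts, against 0, 4, 0, 0 and 0 in such wells of Lgr5-EGFP plates. All genes together had 47141 counts in these YFP wells and 13250 in the Lgr5-EGFP ones. Without TMM scaling, the YFP wells stood at 2270 CPM for Fabp1 and 3288 CPM for Fabp2. The TMM-scaled means of kept YFP wells were 706 and 1175 CPM. All 14 Fabp6 counts were of YFP replicate 5, at 788 CPM. The source of these counts was not tested. The Lgr5-positive organoid plate held 1 Fabp1 count in such wells and none of the other 4 genes, and Reg4-positive plates held 2 Fabp1, 3 Fabp2 and 1 Rbp2 counts. In whole organoid plates they held 117 Fabp1, 32 Fabp2, 9 Fabp6, 25 Rbp2 and 22 Aldh1a1 counts.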

How the results depend on the processing

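Of 447 alternative values of 57 results, 379 kept their direction and side of the threshold or moved less than the replicate spread, 41 moved, 14 passed a threshold that the reported value missed, 8 no longer passed and 5 changed sign. In Reg4-positive against whole organoid cells Fabp1 (-2.02) passed with DESeq2 (-2.01), no filter (-2.08), thinned wells (-2.53) and 1 fit over all groups (-2.03). Fabp2 missed under the replicate block (-2.32) and without wells over 100000 counts (-1.93), as did Aldh1a1 without those wells (-3.22). In Lgr5-positive against whole organoid cells Fabp2 (-3.16) passed with DESeq2 (-3.16), no filter (-3.19), thinned wells (-2.89) and 1 fit over all groups (-3.16), and Aldh1a1 missed without wells over 100000 counts (-5.76). In whole organoid against YFP cells Fabp6 (-4.23) and Rbp2 (1.06) passed with no filter, Fabp1 missed under the replicate block (1.35), and Fabp2 (-0.02) was at 0.048 with a well minimum of 3000 counts. Between the Lgr5 sorts Fabp6 passed with no filter (-5.79). The cause of these changes was not tested.

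Genes called numbered 680 for Reg4-positive against whole organoid, and 1716 with no filter, 418 with the replicate block, 1427 with crossed numbers in the block and 1910 with 1 fit over all groups. For Lgr5-positive against whole organoid they numbered 382, and 1372 with no filter, 184 thinned, 143 without wells over 100000 counts and 1738 with 1 fit over all groups. For YFP against Lgr5-EGFP they numbered 2330, and 580 thinned. For whole organoid against YFP they numbered 2435, and 918 with the replicate block and 717 thinned. Between the Lgr5 sorts they numbered 153, and 472 with no filter, 76 with the replicate block and 18 thinned. Cut into 2 bins, the log2 ratio of Fabp2 along whole organoid wells was 2.26, and at 2 or more counts 55.6% of Fabp1 wells and 21.4% of other wells of YFP replicate 5 held Fabp6, against 82.3% and 83.3% at 1 count.

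Leaving out each replicate in turn gave these lowest and highest values. Genes called ran between 209 and 933 (Reg4-positive against whole organoid), 561 and 837 (Lgr5-positive against whole organoid), 1104 and 2446 (YFP against Lgr5-EGFP), 1187 and 2199 (whole organoid against YFP) and 41 and 56 (between the Lgr5 sorts). In the order Fabp1, Fabp2, Rbp2 and Aldh1a1, log2 differences ran between -2.56 and -1.12, -2.99 and -1.70, -3.89 and -2.97, and -4.40 and -2.62 in the first comparison, and between -15.25 and -13.48 (fitted, no bound), -3.57 and -2.55, -7.19 and -6.27, and -6.37 and -4.68 in the next. They ran between 6.91 and 8.0, 3.45 and 3.88, 9.83 and 10.45 (fitted, no bound), and 4.51 and 4.76 in YFP against Lgr5-EGFP. In whole organoid against YFP they ran between 0.99 and 2.44, -0.64 and 0.41, 0.52 and 1.45, and 1.46 and 3.18, and Fabp6 between -8.66 and -0.91. There Fabp2 was positive without whole organoid replicate 2 (0.41), YFP replicate 1 (0.21) and YFP replicate 3 (0.03). Between the Lgr5 sorts they ran between -5.56 and -4.38, 0.33 and 0.69, 4.58 and 4.63, and 1.33 and 1.47, and Fabp6 between -5.85 and -5.56. Ratios of last to first bin ran between 3.32 and 4.13, 2.08 and 2.71, 3.49 and 3.92, and 2.79 and 3.52 in YFP wells, where Fabp6 changed sign without YFP replicate 5 (-1.13, against 0.38 at the highest), and between 2.59 and 5.10, 2.89 and 3.46, 1.47 and 4.72, and 2.61 and 4.81 in whole organoid wells.

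Same-numbered replicates did not deviate together in every pair. Over 3714 genes their deviations correlated at -0.145 for Reg4-positive and whole organoid, a single value because 2 groups of 2 replicates must give the same r in both pairs. The correlations were 0.133 and -0.069 for YFP and Lgr5-EGFP and 0.312 and 0.183 for whole organoid and YFP, so the numbers were not taken as pairs. Keeping wells beyond the 48 of YFP replicate 4 was not run. Few counts limit the precision of Fabp1 and Rbp2 in the Lgr5 sorts and of Fabp6 outside YFP replicate 5.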

Other observations

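Along the order of whole organoid wells from stem to late enterocyte genes, 4 of 14 regulators of at least 50 CPM had a lower level in the last than in the first bin of both replicates, while 7 had a higher one, against 47.5% and 37.5% of all 3548 genes. The lower ones were Hnf4a, Cdx1, Cdx2 and Elf3. Cdx1 averaged 299 CPM in the first and 124 CPM in the last bin, and Hnf4a averaged 459 CPM in the first and 323 CPM in the last. In YFP wells 6 of 10 regulators were higher in the last bin of all 5 replicates and none was lower in all 5, against 18.8% and 13.6% of 3466 genes. Rbp7 averaged 24.7, 67.6 and 157 CPM over the 3 bins of YFP wells.

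Gut hormone genes differed between plates of 1 group. Gcg was counted at 188 CPM in Reg4-positive replicate 2 and at 337 CPM in Lgr5-EGFP replicate 2, and at 0 in the other replicate of each. Pyy was counted in Lgr5-EGFP replicate 2, at 215.5 CPM, and in no other replicate.

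On single plates, Fabp1 stood at 3739.8, 3145 and 3155 CPM on the 3 plates of whole organoid replicate 1 and at 2502, 1201, 1332 and 1449 CPM on the 4 plates of replicate 2. Fabp2 stood at 1312, 1444 and 1459 CPM on the plates of replicate 1 and at 258, 214, 874 and 904 CPM on those of replicate 2. The 10 Fabp6 counts of whole organoid replicate 2 fell on 2 of its 4 plates.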
